A study of Danio rerio with 12 samples.

Results

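Control zebrafish larvae and larvae carrying the transgene labelled Tg(ifih1_mut), here called ifih1mut, were compared for their response to poly I:C, an artificial RNA duplex that imitates viral RNA. The comparison used all 12 of the 12 libraries of the series, in 4 groups of 3 libraries: control, control with poly I:C, ifih1mut, and ifih1mut with poly I:C. Every library came from total RNA of 25 pooled whole larvae, aged 3 days after fertilization. The series title presents the larvae as a model of Aicardi-Goutières syndrome, a genetic disorder in which interferon signalling is high. Not given in the sources used here are the mutation in the transgene, the promoter that drives it, the number of founder lines, and how poly I:C was applied, at what dose and for how long. Whether a group's pools came from different clutches is not stated, so p-values cover the spread between these pools alone.

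The gene ifih1 encodes MDA5, a receptor in the cytoplasm that binds long double-stranded RNA and signals through the adaptor MAVS to the transcription factors IRF3 and IRF7. These factors switch on type I interferon genes, and secreted interferon then acts on cell surface receptors, JAK kinases and STAT factors to raise a large set of interferon-stimulated genes. Many of those genes encode antiviral proteins, and some encode sensors and factors of the same pathway, so that the pathway amplifies itself until inhibitors such as USP18 and the SOCS proteins damp it.

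The quantity compared was the response difference, the log2 fold change with poly I:C in ifih1mut minus the log2 fold change with poly I:C in control. It is an interaction of genotype and treatment that needs all 4 groups. A gene was called when its Benjamini-Hochberg adjusted p in the quasi-likelihood test of edgeR was under 0.05. Levels are in CPM, a library's counts scaled to a common total, and are listed by library set, the order of the library numbers within each group: A81, A82 and A83 for control, A78, A79 and A80 for control with poly I:C, A75, A76 and A77 for ifih1mut, and A72, A73 and A74 for ifih1mut with poly I:C. Libraries of the same set deviated together, so the set was also fitted as a block, and the adjusted p with the block is given where it changes a call. Response differences and their SE are from the fit without the block unless stated, also where they stand beside an adjusted p with the block.

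Library totals ran from 31876869 counts in control library A83 to 100839015 in control library A81. The ifih1 gene (ENSDARG00000018553, chromosome 9, 51147380 to 51217396, plus strand, in the deposited coordinates, whose build is not given in the sources used here) stood at 2.29, 2.73 and 1.99 CPM in control and at 2.26, 1.92 and 2.02 CPM in control with poly I:C. It stood at 11, 13.96 and 17.08 CPM in ifih1mut and at 17.46, 25.33 and 33.26 CPM in ifih1mut with poly I:C. Every ifih1mut library was above every control library, as the labels imply, and these counts do not separate transgene reads from native ones. The ifih1 response difference was 1.03 ± 0.33 (SE) on the log2 scale and was not called (adjusted p in edgeR = 1.0 without the block and 0.5 with it). Markers of the tissues of a whole larva, actc1b for muscle, elavl3 for neurons, krt4 for epidermis, fabp10a for liver, hbbe1.1 for red blood cells, prss1 for exocrine pancreas and rho for rods, were all detected in every library. None of these 7 had a called response difference. The embryonic globin hbbe1.1 differed between sets, at 59.8 CPM in control library A81 and at 925 and 889 CPM in A82 and A83.

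Genes such as ifit10, mxb, isg15, dhx58 and irf7, of the antiviral and interferon pathways, had a larger response to poly I:C in ifih1mut larvae than in control larvae. Of 26508 genes tested, 41 (0.155%) were called with a larger response in ifih1mut and 0 with a smaller one. At an unadjusted p under 0.05 there were 420 larger and 122 smaller responses. Their total, 542, is a smaller share of the 26508 than the 0.05 that no difference in any gene would give. The Wald test of DESeq2 called 133 larger and 3 smaller. With the library set as a block, edgeR called 79 genes (0.298%), all larger in ifih1mut, and these included all 41. With shares this small, 0 called genes in a gene list is near the share over all genes tested. The response differences of the 41 genes ran from 1.95 to 9.86 with a median of 4.97, beside a median of -0.01 over all genes tested. Of the 41, 20 averaged under 1 CPM in the unstimulated libraries. Such genes may have passed the filter on low counts through stimulated ifih1mut alone, and could then hardly show a smaller response.

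In the 41 called genes the stimulated ifih1mut group stood apart from the other 3, a pattern that their selection by this contrast favours. None of the 41 genes was called for poly I:C in control larvae, where their median log2 fold change was 0.25 with a range from -1.22 to 1.75. All 41 were called for poly I:C in ifih1mut larvae, with a median of 5.37. None was called between the genotypes without poly I:C, where the median was -0.13 with a range from -3.2 to 0.23 and 13 were positive. All 41 were called between the genotypes with poly I:C, where the median was 4.59. In each of the 41 genes the 3 stimulated ifih1mut libraries lay above the other 9, a pattern that 1.64% of the genes tested had. In each of them the difference was positive in all 3 library sets, which 12.7% of the genes tested showed. All these counts, with the calls in the component comparisons, describe the genes that the same contrast selected. The counts were thus largely fixed in advance and are no separate support for a difference. The shares of all genes tested that those comparisons called are not given here.

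**Figure D1:**
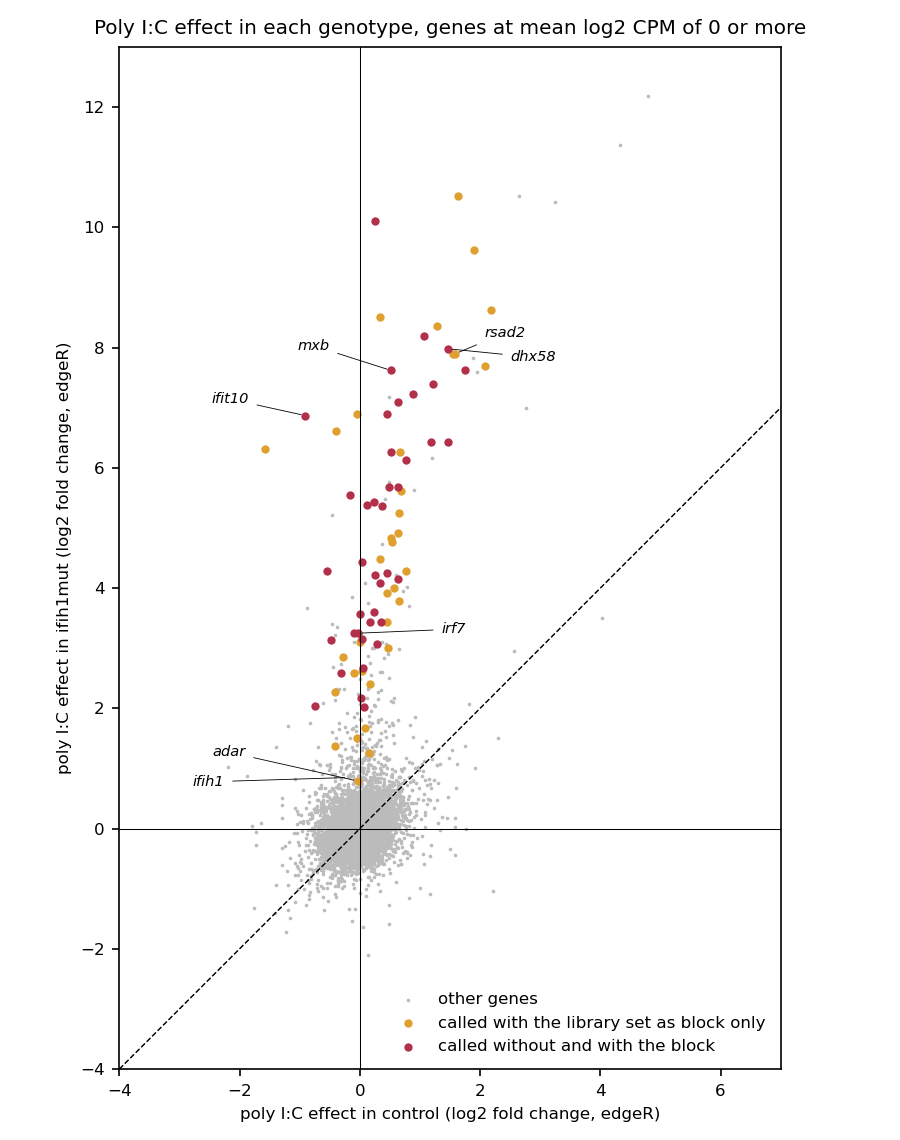
Log2 fold change with poly I:C in control (horizontal axis) and in ifih1mut (vertical axis) from edgeR, for the 22829 genes whose average log2 CPM was 0 or more. The called genes lie above the dashed line of equal effects. Over all 41 genes called without the block, control effects ran from -1.22 to 1.75 and ifih1mut effects from 2.02 to 10.11. Genes called with the block only include response differences as small as 0.8, which lie close to the line.

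Across those 22829 genes the 2 effects had a Pearson correlation of 0.34 and a Spearman correlation of 0.252, given as a description since genes are not independent replicates and the effects share library sets.

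The 3 marker genes of the interferon response, chosen with earlier results of these data known, were all called. The gene ifit10 (ENSDARG00000007467, chromosome 12, 17025726 to 17028255, minus strand), an IFIT family member of the kind that binds foreign RNA, stood at 0.191, 0.115 and 0.063 CPM in control and at 0.0309, 0.0 and 0.181 CPM in control with poly I:C. It stood at 0.144, 0.0413 and 0.0612 CPM in ifih1mut and at 5.49, 6.08 and 15.1 CPM in ifih1mut with poly I:C. The first 3 groups overlapped one another and the stimulated ifih1mut libraries stood apart, with 953 counts against 28, 7 and 12 in control, stimulated control and unstimulated ifih1mut. The ifit10 response difference was 7.79 ± 1.13 (SE; adjusted p in edgeR = 0.03), and it was 9.83 without library A80, which held the highest of the stimulated control values. Outside stimulated ifih1mut, ifit10 lay below the filter on low counts, so it entered the test through that group alone.

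The Mx proteins are dynamin-like GTPases that block virus replication. The gene mxb (ENSDARG00000004953, chromosome 1, 7574351 to 7603734, minus strand) stood at 0.296, 0.421 and 0.189 CPM in control, at 0.526, 0.15 and 0.663 CPM in control with poly I:C, and at 0.259, 0.344 and 0.138 CPM in ifih1mut. In ifih1mut with poly I:C it stood at 28.1, 21.6 and 98.1 CPM. The lowest stimulated ifih1mut library was far above the highest of the other 9. This gave mxb a response difference of 7.11 ± 1.03 (SE; adjusted p in edgeR = 0.03). Its neighbour mxa, in the same orientation between 7562316 and 7570181 on chromosome 1, had means of 0.5, 0.797 and 0.489 CPM in control, stimulated control and unstimulated ifih1mut and of 69.2 ± 48.5 CPM (SD, n = 3) in stimulated ifih1mut. The response difference of mxa was 6.47 ± 0.87 (SE; adjusted p in edgeR = 0.025). A further Mx gene, mxe on chromosome 9, had a response difference of 6.35 ± 1.29 (SE) that was called with the block (adjusted p in edgeR = 0.0054) and not without it (0.16).

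The gene irf7 (ENSDARG00000045661, chromosome 25, 25546789 to 25550955, minus strand), the factor that amplifies interferon production, was expressed in every library. It stood at 5.03, 5.45 and 5.01 CPM in control, at 4.14, 5.82 and 5.18 CPM in control with poly I:C, and at 4.17, 4.2 and 4.68 CPM in ifih1mut. In ifih1mut with poly I:C it stood at 31.4, 24.7 and 68.6 CPM. The fold change with poly I:C was 0.978 in control and 9.55 in ifih1mut, and the response difference was 3.29 ± 0.44 (SE; adjusted p in edgeR = 0.025).

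**Figure D2:**
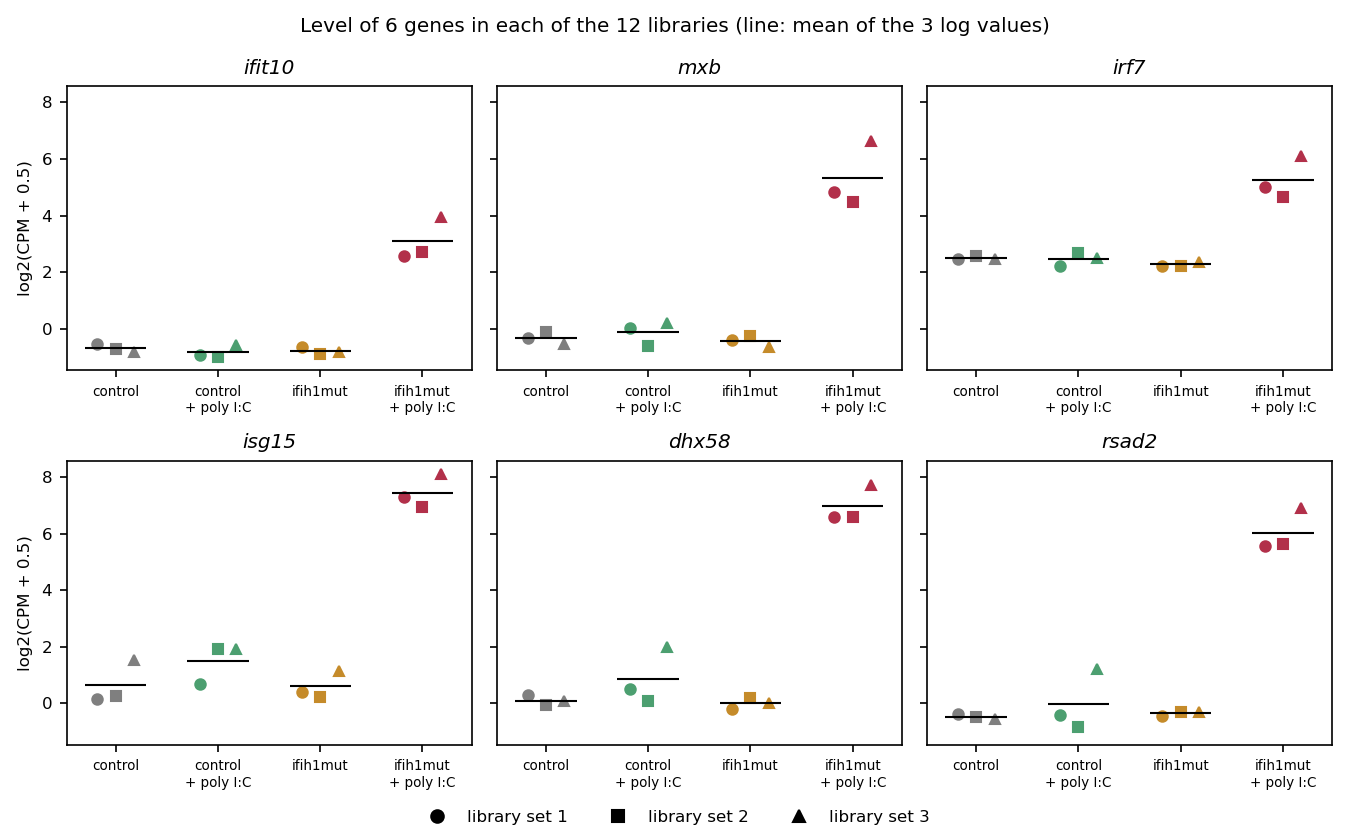
Levels of ifit10, mxb, irf7, isg15, dhx58 and rsad2 as log2(CPM + 0.5) in each of the 12 libraries, by group, with a symbol for each library set and a line at the mean of the 3 log values. In all 6 panels the 3 stimulated ifih1mut libraries lie above the other 9, and in rsad2 and dhx58 the stimulated control library of set 3, A80, lies above the other 2 stimulated controls.

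Among the RNA and DNA sensors and their adaptors, 1 of 13 tested members was called (7.69%), beside 0.155% of all genes tested. It was dhx58 (ENSDARG00000089463, chromosome 3, 17689419 to 17710221, plus strand), which encodes LGP2, the RIG-I-like receptor that modulates MDA5. It stood at 0.716, 0.459 and 0.567 CPM in control, at 0.927, 0.57 and 3.49 CPM in control with poly I:C, and at 0.374, 0.633 and 0.52 CPM in ifih1mut. In ifih1mut with poly I:C it stood at 95.6, 96.2 and 210 CPM. Stimulated control library A80 stood above the 6 unstimulated libraries and far below the stimulated ifih1mut ones. The response difference was 6.51 ± 0.85 (SE; adjusted p in edgeR = 0.024), and 7.66 without A80. The sensor list had a median response difference of 0.82. The uncalled members included tmem173, which encodes the adaptor STING, at 1.48 ± 0.43 (SE), and myd88, the Toll-like receptor adaptor, at -0.23 ± 0.22 (SE).

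Of the interferons and their receptor chains, 11 list members matched a gene in the tables, 6 passed the filter on low counts, and 0 were called by edgeR in either fit or by DESeq2. None had an unadjusted p under 0.05. Of the list's interferon genes only ifnphi1 was tested. The genes ifnphi2, ifnphi3, ifnphi4 and ifng1 and the receptor chain crfb2 did not pass the filter. The interferon gene ifnphi1 held 27, 32, 36 and 69 counts in control, stimulated control, ifih1mut and stimulated ifih1mut, and its response difference was 0.72 ± 1.06 (SE). The ifnphi1 difference was thus smaller than its standard error. Its raw counts are not scaled to the library totals, which differed between groups, while the response difference is. The receptor chains crfb6 and il10rb, the members with the highest levels, had response differences of -0.06 ± 0.14 and 0.07 ± 0.21 (SE). Besides these, only the chains crfb4, crfb17 and ifngr1 were tested, so the list does not show whether the type I interferon receptor as a whole changed.

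Of 25 tested JAK, STAT and IRF genes, 1, irf7, was called without the block and 3 with it, and the median response difference of the list was 0.30. The shares called were 4% and 12%, beside 0.155% and 0.298% of all genes tested. Among the uncalled members, the interferon factors irf3 and irf10 had response differences of 2.74 ± 0.67 and 2.44 ± 0.45 (SE).

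The antiviral effectors held most of the called list members. Of 47 tested, 10 were called without the block (21.3%) and 19 with it (40.4%), all with a larger response in ifih1mut, and 44 had a positive value. Over all genes tested, 0.155% and 0.298% were called and 48.6% had a positive value. Their median response difference was 2.79, in a list chosen with earlier results of these data known. The list had 1 gene with a group at 0 in all 3 libraries, ifit15, and setting that group to 3 counts over the group left the median at 2.79. The summed level of the list's genes ran from 132 to 141 CPM in control, from 128 to 156 CPM in stimulated control, from 133 to 138 CPM in ifih1mut and from 639 to 1581 CPM in stimulated ifih1mut. In bulk RNA of whole larvae, more responding cells and more RNA per responding cell cannot be told apart.

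The ubiquitin-like protein ISG15 is attached to viral and host proteins in infected cells, and UBA7 is the enzyme that activates it. The gene isg15 (ENSDARG00000086374, chromosome 5, 20112032 to 20113284, plus strand) stood at 0.611, 0.707 and 2.39 CPM in control, at 1.11, 3.3 and 3.28 CPM in control with poly I:C, and at 0.834, 0.675 and 1.73 CPM in ifih1mut. In ifih1mut with poly I:C it stood at 155, 121 and 277 CPM. The first 3 groups overlapped. The response difference was 6.18 ± 0.85 (SE; adjusted p in edgeR = 0.025), and the stimulated ifih1mut level per length was 162 CPM per kilobase. The uba7 gene went from a mean of 2.61 CPM in ifih1mut to 16.1 CPM with poly I:C, beside 2.84 and 2.94 CPM in control. Its response difference of 2.58 ± 0.43 (SE) was called with the block (adjusted p in edgeR = 0.0073) and missed the threshold without it (0.052).

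The helicase genes helz2 and znfx1 both passed the test. The helicase gene helz2 stood between 0.306 and 1.33 CPM in the 9 libraries of the other groups and at 26.7, 22.6 and 61.4 CPM in stimulated ifih1mut, a response difference of 5.24 ± 0.63 (SE; adjusted p in edgeR = 0.019). ZNFX1 is a helicase that senses viral RNA at mitochondria in mammals. The gene znfx1 stood at 5.27, 1.51 and 3.28 CPM in control, at 4.24, 2.01 and 4.91 CPM in stimulated control, at 4.43, 1.43 and 2.28 CPM in ifih1mut and at 87.3, 64.6 and 179 CPM in stimulated ifih1mut. In the first 3 groups it was lowest in set 2, and the groups overlapped. For znfx1 the response difference was 5.27 ± 0.8 (SE; adjusted p in edgeR = 0.036).

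The gene xaf1, whose product antagonises the inhibitor of apoptosis XIAP in mammals, stood at 13.6, 15 and 35.3 CPM in stimulated ifih1mut and at no more than 0.81 CPM in any other library. Its response difference was 5.72 ± 0.68 (SE; adjusted p in edgeR = 0.019). The span of xaf1 overlaps BX537104.1 on the opposite strand, so reads from the stretch they share cannot be assigned without strand. BX537104.1 itself had a response difference of -1.08 ± 0.73 (SE) and was not called. The immunity-related GTPase gene irge4 had 5.04 ± 0.61 (SE; adjusted p in edgeR = 0.019) and the ubiquitin ligase gene rnf213b 4.97 ± 0.8 (SE; adjusted p in edgeR = 0.043). The PHD finger gene phf11 had 4.39 ± 0.66 (SE; adjusted p in edgeR = 0.034). In all 3 genes the highest stimulated ifih1mut library was A74, at 18.98 CPM for irge4, 35.9 CPM for rnf213b and 14.1 CPM for phf11.

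Viperin, the product of rsad2, is a radical-SAM enzyme that makes a chain-terminating nucleotide, and the kinase CMPK2 supplies its substrate. The genes rsad2 and cmpk2 lie side by side on chromosome 17 between 35357451 and 35375448, in opposite orientation. The rsad2 level was 0.267, 0.21 and 0.189 CPM in control, 0.247, 0.06 and 1.81 CPM in stimulated control, 0.23, 0.317 and 0.321 CPM in ifih1mut and 46.5, 49.7 and 119 CPM in stimulated ifih1mut. Stimulated control library A80 was again the highest of the 9 libraries outside that group. The rsad2 response difference was 6.31 ± 1.2 (SE), with an adjusted p in edgeR of 0.1 without the block and 0.011 with it, and it was called without the block once A80 was left out, at 8.51. For cmpk2 the response difference was 5.6 ± 1.13 (SE; adjusted p in edgeR = 0.16 without the block and 0.0073 with it).

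Double-stranded RNA is also read by the kinase PKZ of fish, a relative of PKR, and edited by ADAR. The pkz gene had means of 0.558, 0.821 and 0.629 CPM in control, stimulated control and ifih1mut and of 18.1 ± 15.2 CPM (SD, n = 3) in stimulated ifih1mut. Its response difference of 4.32 ± 0.79 (SE) was called with the block (adjusted p in edgeR = 0.033; 0.081 without it). The adar gene was abundant throughout, with 59.6, 56.6 and 66.2 CPM in control, 62.1, 54.4 and 62.6 CPM in stimulated control, 59.5, 54.7 and 62.1 CPM in ifih1mut and 95.8, 82.6 and 126 CPM in stimulated ifih1mut. It had the smallest response difference of the genes called with the block, 0.8 ± 0.13 (SE; adjusted p in edgeR = 0.03), and without the block the value was 0.81 ± 0.2 (SE; 0.37).

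Of 21 feedback inhibitors tested, 0 were called without the block (2 had an unadjusted p under 0.05), and usp18 and socs1a were called with it. The share called with the block was 9.52%, beside 0.298% of all genes tested. DESeq2 called 1 member. USP18 removes ISG15 from proteins and blocks the interferon receptor. The usp18 gene stood at 4.22, 2.55 and 7.55 CPM in stimulated ifih1mut and between 0.41 and 0.719 CPM in the other 9 libraries. Its response difference was 3.1 ± 0.55 (SE; adjusted p in edgeR = 0.073 without the block and 0.05 with it, just under the threshold before rounding). SOCS1 inhibits JAK kinases. The socs1a gene stood at 3.14, 2.31 and 3.88 CPM in control, at 2.84, 1.44 and 2.65 CPM in stimulated control, at 3.39, 2.15 and 4.05 CPM in ifih1mut and at 6.04, 5.55 and 13.4 CPM in stimulated ifih1mut. For socs1a the response difference was 1.81 ± 0.55 (SE), with an adjusted p in edgeR of 0.95 without the block and 0.041 with it.

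TRIM proteins are ubiquitin ligases, and fish have large families of them, named ftr and btr, several of which act in antiviral defence. Of 67 tested, ftr90 was called without the block and ftr72 as well with it, and the median response difference was 0.21. The shares called were 1.49% and 2.99%, beside 0.155% and 0.298% of all genes tested. The ftr90 gene stood at 0.898, 0.803 and 0.851 CPM in control, at 1.11, 1.26 and 1.15 CPM in stimulated control, at 0.633, 0.799 and 0.673 CPM in ifih1mut and at 10.4, 7.1 and 22.9 CPM in stimulated ifih1mut. Its response difference was 3.79 ± 0.52 (SE; adjusted p in edgeR = 0.025). The ftr72 gene, with 7 counts in unstimulated ifih1mut and 393 in stimulated ifih1mut, had 6.5 ± 1.13 (SE; adjusted p in edgeR = 0.065 without the block and 0.011 with it). Both lie between 41711743 and 41756507 on chromosome 15, where the 3 other tested genes, ftr76, ftr73 and ftr88, were not called, and ftr90 overlaps ftr76 and CR853294.1 on the same strand, so that reads of such close relatives may be shared.

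**Figure D3:**
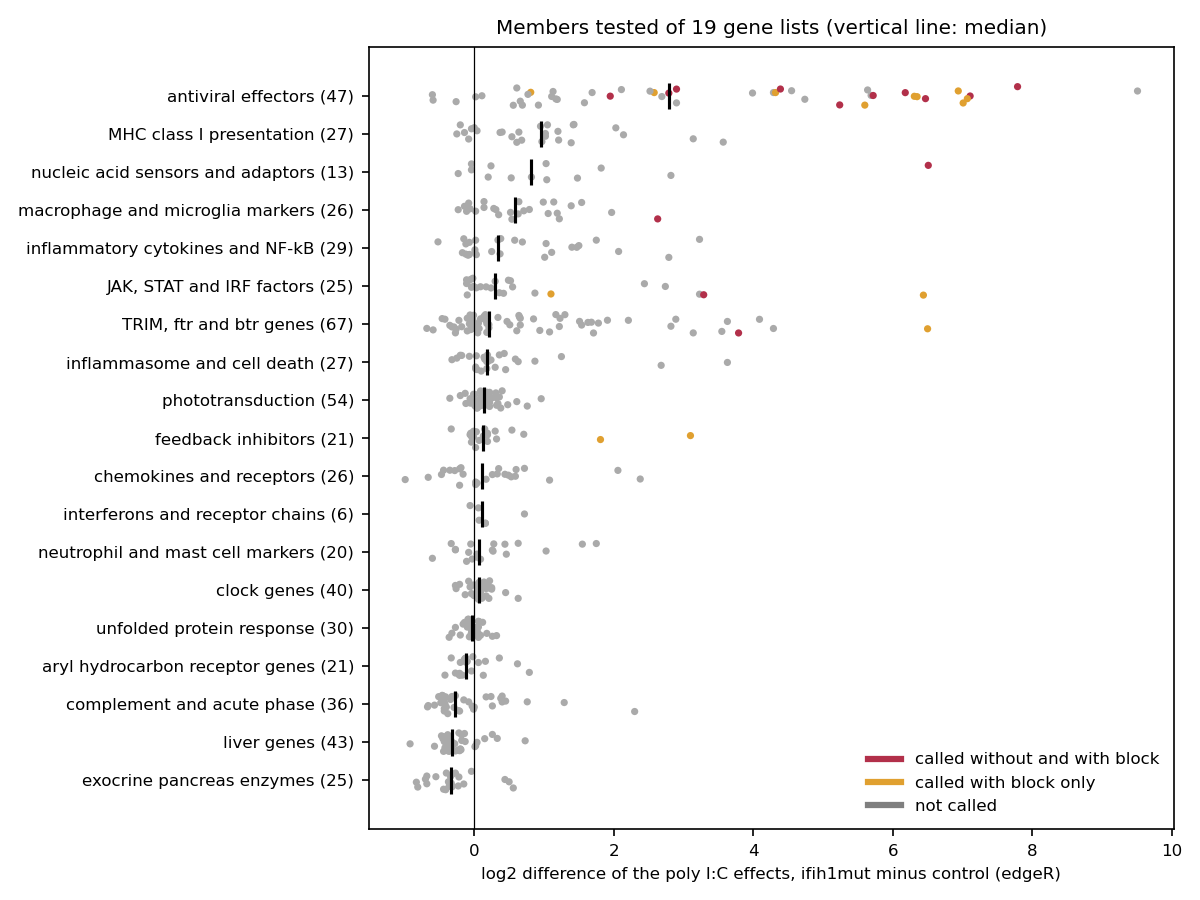
Response difference (log2, edgeR) of each tested member of 19 gene lists, with a vertical line at the list median and the number tested in parentheses. The called members sit in the lists of antiviral effectors, sensors, JAK, STAT and IRF factors, TRIM genes, feedback inhibitors and macrophage markers, and the lists of liver and exocrine pancreas genes have medians of -0.32 and -0.34.

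The MHC class I presentation genes, which display peptides to T cells and are known interferon targets, had the second highest list median, 0.95, with 21 of 27 members positive and 0 called by edgeR in either fit, while DESeq2 called 2. At an unadjusted p under 0.05 there were 7 larger and 0 smaller responses, beside 420 and 122 of the 26508 genes tested. Examples from the list were psme2, a proteasome activator subunit, at 2.14 ± 0.47 (SE; adjusted p in edgeR = 0.24) and b2m, the MHC class I light chain, at 3.14 ± 0.72 (SE; adjusted p in edgeR = 0.29). The chaperones canx and pdia3, the members with the highest levels, had means between 381 and 419 CPM and between 274 and 298 CPM over the 4 groups.

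Inflammatory cytokine and chemokine genes did not pass the test. Of 29 cytokine and NF-kB pathway genes and 26 chemokine and receptor genes tested, 0 were called by edgeR in either fit or by DESeq2. This is near the share that edgeR called over all genes tested, 0.155% without the block and 0.298% with it. At an unadjusted p under 0.05 the first list had 0 members and the second 1, beside 542 of the 26508 genes tested. The list medians were 0.34 and 0.11. The gene il1b, which encodes a pyrogenic cytokine, stood at 10.1, 0.421 and 3.72 CPM in control, at 2.91, 0.42 and 6.48 CPM in stimulated control, at 5.7, 0.688 and 1.97 CPM in ifih1mut and at 0.546, 2.47 and 8.28 CPM in stimulated ifih1mut. All 4 groups overlapped. The response difference of il1b, 1.01 ± 1.7 (SE), was smaller than its standard error and turned to -0.32 without library A74 and to -0.23 without A81. The neutrophil chemokine gene cxcl8a had a response difference of 0.17 ± 0.65 (SE). The gene tnfa, at no more than 27 counts in any group, did not pass the filter on low counts and was not tested. The other members with the highest levels were ikbkg at 0.01 ± 0.11, mmp9 at 1.03 ± 0.91, cxcl12a at -0.19 ± 0.17 and ccl25b at -0.21 ± 0.32 (SE).

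Of 27 inflammasome and cell death genes, 0 were called by edgeR in either fit and 1 by DESeq2, with 5 larger responses at an unadjusted p under 0.05 and a median of 0.18. Over the 26508 genes tested, edgeR called 0.155% without the block and 0.298% with it, and 420 had a larger response at that unadjusted p. The caspase gene caspb and the survival gene mcl1a had 0.18 ± 0.19 and 0.24 ± 0.15 (SE).

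Markers of immune cells were examined because a whole larva can gain or lose such cells. Of 26 tested macrophage and microglia markers, the same 1 was called in each edgeR fit and 21 had a positive value, with a median response difference of 0.58. The share called was 3.85%, beside 0.155% of all genes tested without the block and 0.298% with it. At an unadjusted p under 0.05 there were 7 larger and 0 smaller responses, beside 420 and 122 of the 26508 genes tested. The called marker was lgals3bpb, which encodes a secreted galectin-binding glycoprotein. It stood at 12.06, 11.56 and 8.7 CPM in control, at 12.7, 10.5 and 10.3 CPM in stimulated control, at 11.13, 11.51 and 6.31 CPM in ifih1mut and at 60.7, 39.1 and 84.7 CPM in stimulated ifih1mut. The lgals3bpb response difference was 2.63 ± 0.4 (SE; adjusted p in edgeR = 0.036). The summed level of the macrophage list ran from 1291 to 2220 CPM in control, 1641 to 1845 CPM in stimulated control, 1290 to 2342 CPM in ifih1mut and 1739 to 2006 CPM in stimulated ifih1mut, and the groups overlapped. The defining markers mpeg1.1, mfap4 and csf1ra had response differences of 0.99 ± 0.51, 0.14 ± 0.46 and 0.02 ± 0.23 (SE) and marco 1.22 ± 0.58 (SE), with none called. Of 20 neutrophil and mast cell markers 0 were called by edgeR in either fit or by DESeq2. None had an unadjusted p under 0.05, the median was 0.07, and mpx, the neutrophil peroxidase gene, had 0.28 ± 0.21 (SE). The part of immune cell numbers in the response difference was not tested.

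In 7 further lists no member was called by edgeR in either fit or by DESeq2: complement and acute phase, liver, exocrine pancreas, unfolded protein response, phototransduction, clock and aryl hydrocarbon receptor genes. Over all genes tested, 48.6% had a positive response difference, and edgeR called 0.155% without the block and 0.298% with it. Of 43 liver genes 7 had a positive response difference and the median was -0.32, and of 25 exocrine pancreas genes 3 were positive with a median of -0.34. Within library sets the pancreas median was -0.38, -0.64 and 0.14, so its sign was not the same in all 3 sets. The liver list had 0 larger and 4 smaller responses at an unadjusted p under 0.05 and the pancreas list 0 of either. The apolipoprotein genes apoa2 and apoa1b had -0.35 ± 0.31 and -0.27 ± 0.25 (SE), and the trypsin gene prss1 had -0.37 ± 0.45 (SE). Of 36 complement and acute phase genes, made largely in liver, 11 were positive and the median was -0.28. They had 1 larger and 2 smaller responses at an unadjusted p under 0.05, with fga, a fibrinogen chain, at -0.32 ± 0.22 (SE) and c3a.1 at 0.24 ± 0.29 (SE).

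The other 4 lists had medians between -0.12 and 0.15 and no member at an unadjusted p under 0.05. Their signs were also uneven beside the 48.6% positive over all genes tested. Positive members made up 85.2% of phototransduction, 75% of clock, 40% of unfolded protein response and 28.6% of aryl hydrocarbon receptor genes. The unfolded protein response list had a median of -0.03, with the chaperone gene hspa5 at -0.03 ± 0.21 (SE) and atf4a at 0.09 ± 0.13 (SE). Phototransduction genes had 0.15, with rho at 0.13 ± 0.38 (SE) and the cone opsin gene opn1sw1 at 0.02 ± 0.38 (SE). Clock genes had 0.07, with csnk1da at 0.11 ± 0.12 (SE) and nr1d2b at 0.09 ± 0.33 (SE). Aryl hydrocarbon receptor genes had -0.12, with gstp1 at -0.12 ± 0.16 (SE). The summed level of that last list was between 2452 and 2677 CPM in the 4 libraries of set 3 and between 916 and 1133 CPM in the other 8, so it moved with the library set and not with the groups.

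Most called genes lay outside the lists. Of the 41 genes called without the block, 14 were list members and 27 were not, where the lists held 573 of the 26508 genes tested. By name, 18 had a gene symbol, 16 a clone or assembly symbol and 7 none. Alternate contigs held 5 of the 41, and a read from such a contig may also match the chromosome. Of the 32349 genes joined before filtering, 5306 had no name and 3569 lay on alternate contigs. The genes in the next 2 paragraphs were chosen after their values were seen.

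The largest run of called genes was on chromosome 13, where 5 of the 7 tested genes between 37605896 and 37649595 were called in at least 1 of the fits. They are zgc:123068, si:dkey-188i13.6, si:dkey-188i13.7, si:dkey-188i13.9 and si:dkey-188i13.10. Of these zgc:123068 had the highest stimulated ifih1mut level per length of all called genes, 303 CPM per kilobase. It stood at 2.59, 5.77 and 5.61 CPM in control, at 4.3, 5.79 and 9.61 CPM in stimulated control, at 2.76, 6.33 and 5.11 CPM in ifih1mut and at 214, 177 and 722 CPM in stimulated ifih1mut. For zgc:123068 the response difference was 5.75 ± 0.82 (SE; adjusted p in edgeR = 0.03). Over the 79 genes called in either fit there were 11 such runs within 100 kb, holding 26 genes, and the called genes lay on 21 numbered chromosomes. Some of the runs lie on alternate contigs and hold only genes without a name. How often uncalled genes form such runs was not counted. Neighbours with similar names may share reads, and 7 called genes overlap another gene, 3 of them on the same strand.

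The proneural transcription factor gene ascl1b, known for its role in neuron formation, was called with 3.34 ± 0.4 (SE; adjusted p in edgeR = 0.019). It stood at 3.57, 5.1 and 3.47 CPM in control, at 3.4, 3.99 and 4.04 CPM in stimulated control, at 2.88, 4.49 and 3.61 CPM in ifih1mut and at 29.4, 24.3 and 51.5 CPM in stimulated ifih1mut. The first 3 groups overlapped and the stimulated ifih1mut libraries were all higher. The galectin gene lgals9l3 had 2.15 ± 0.33 (SE; adjusted p in edgeR = 0.036), from means near 13 CPM to 58.8 ± 22.2 CPM (SD, n = 3) in stimulated ifih1mut. The gene ifi35 and the ADP-ribosyltransferase gene parp12a are members of the antiviral effector list. Their response differences were 2.9 ± 0.46 and 2.79 ± 0.43 (SE), with adjusted p in edgeR of 0.039 and 0.037. The highest value of the 41, 9.86 for CABZ01073795.1, rested on 2 counts in unstimulated ifih1mut, so its size is loosely set.

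The response of the 41 called genes differed in strength between library sets while its direction did not, in genes that the same contrast selected. The median difference of the 41 genes within a set, on log2(CPM + 0.5), was 3.6 in set 1, 3.01 in set 2 and 4.06 in set 3, beside medians between -0.01 and 0.01 over all genes tested. Among the stimulated ifih1mut libraries A74 was the highest in 40 of the 41 genes and A73 the lowest in 34. Among the stimulated controls A80 was the highest in 25 of the 41 and stood above all 3 unstimulated controls in 25. For A78 these counts were 11 and 18, and for A79 they were 5 and 14. The same shares over all genes tested were not counted, and whether these orders are particular to the 41 genes was not tested. The median log2 level of the 41 genes relative to the control mean was 0.17 in A78, 0.0 in A79 and 0.31 in A80. Both A74 and A80 belong to set 3.

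**Figure D4:**
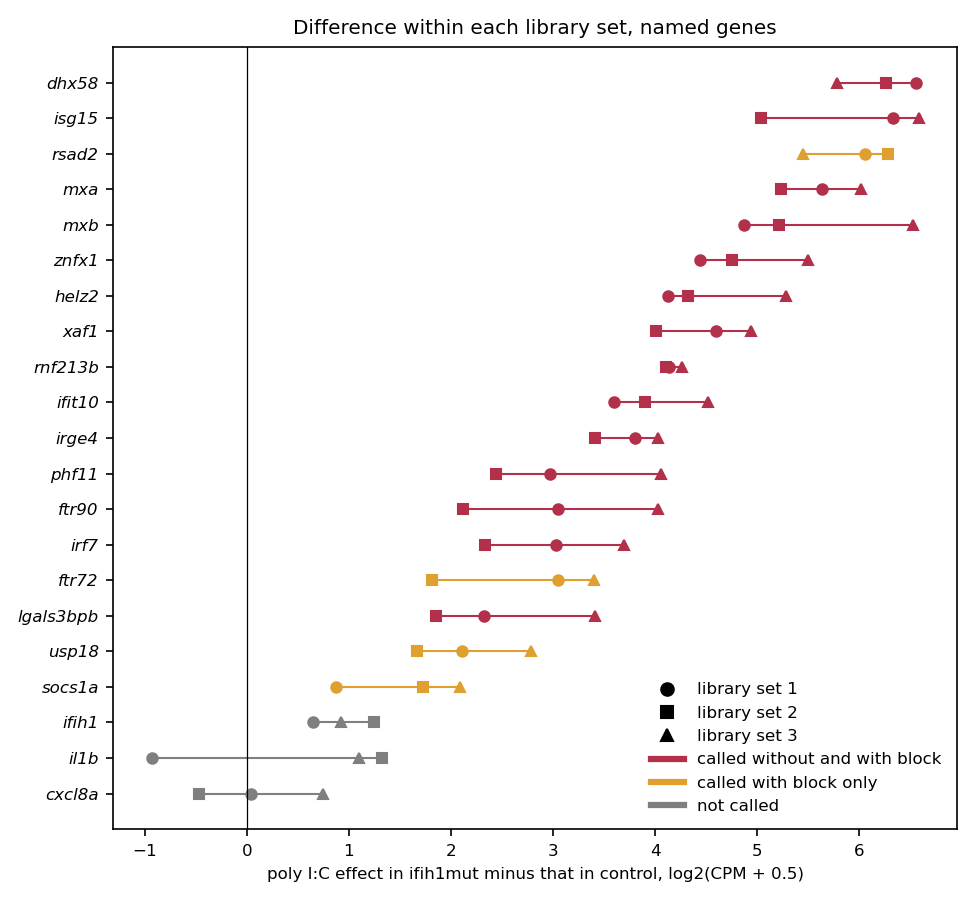
Response difference within each of the 3 library sets on log2(CPM + 0.5), for 21 named genes tested, ordered by their mean, with colours for the call. All 18 called genes shown are positive in every set, from 0.87 for socs1a in set 1 to 6.58 for isg15 in set 3, while il1b and cxcl8a have sets on both sides of 0.

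The calls without the block depended on single libraries, while the called genes kept their sign. With 1 library left out, 0 genes were called without A75, A76, A77, A78, A79, A81 or A82, 6 without A83, 22 without A80, 33 without A72, 42 without A74 and 60 without A73. In these 12 fits between 505 and 662 genes had an unadjusted p under 0.05. All 41 genes kept a positive value in all 12 fits, 492 values in total. With the set as a block the same fits called between 26 genes, without A81, and 104 genes, without A73, and the 79 genes were positive in all 948 values. The 41 and 79 genes were selected by this same contrast from all 12 libraries, so their steady sign was nearly fixed in advance. Calls were 45 without A77 or A78, 43 without A80 and 37 without A82 with the block.

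**Figure D5:**
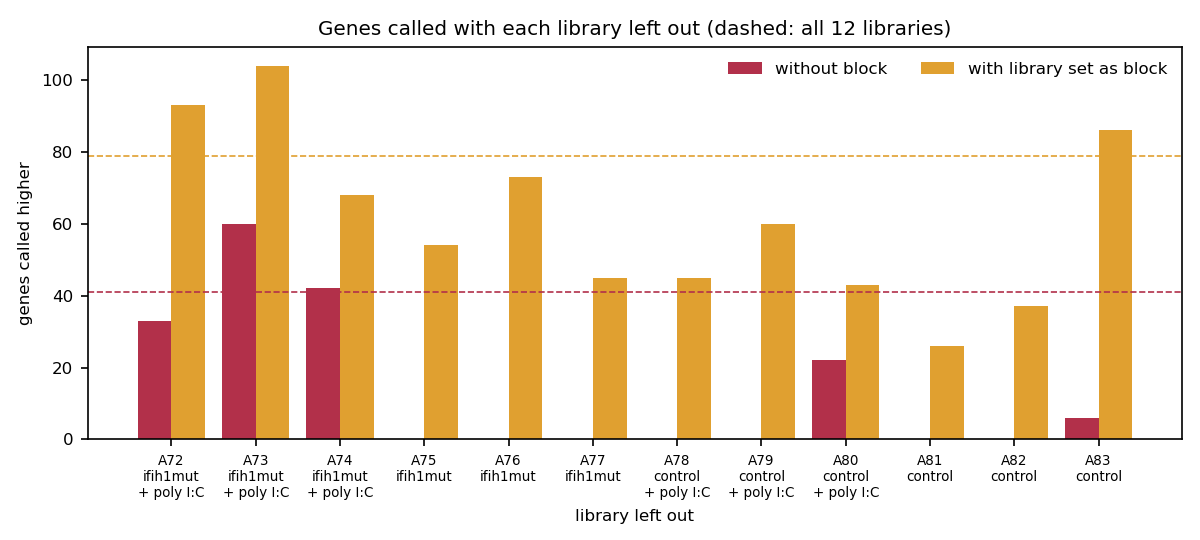
Number of genes called with a larger response in ifih1mut when each library is left out, without the block and with the library set as block, with dashed lines at the 41 and 79 genes called with all 12 libraries. Without the block 7 of the 12 bars are at 0, and with it all 12 stand between 26 and 104.

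Without the block, each of the 14 genes named by rule and called lost its call when A75, A76, A77, A78, A79, A81 or A82 was left out. Without A83, xaf1 and irge4 stayed called, and without A80 these 2 and dhx58, mxa, ifit10, helz2 and rnf213b. Without A72, znfx1, lgals3bpb and phf11 lost their calls, and without A74 znfx1 alone. With the block, xaf1, helz2, irge4, dhx58, irf7, isg15 and znfx1 stayed called whichever library was left out. The smaller differences called with the block held less often, with usp18 and adar called in 3 of the 12 fits each and socs1a in 2. Among the fits of all 12 libraries, DESeq2 alone called smaller responses in ifih1mut, 3 genes without the block and 8 with it. Without the block these were slc17a5, a lysosomal sialic acid transporter gene, at -0.43, and 2 assembled genes without a name at -0.7 and -1.48. With the block the same 3 were called, together with the named genes pbld2 at -2.19, comtd1 at -0.89, ces2 at -0.77 and ftcd at -0.57 and a further gene without a name at -1.28. These genes were chosen after their values were seen.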

How the data were processed

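Total RNA of 12 pools of 25 whole larvae was sequenced. Per the file headers, the authors deposited a raw read count per gene and library in 3 comparison tables, and 36 columns of normalized values that were not used. Not given in the sources used here are the aligner, the counting program, the strand setting and the genome build. Joining the tables on gene identifiers gave 32349 genes. The tables repeat 187002 counts, of which 0 differed, and 6372 missing values, in 1484 genes, were set to 0. Libraries are named by the group and library number in the column names. The reference names covered 25043 identifiers, and 677 of 791 list symbols matched a gene.

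Filtering with filterByExpr (default settings, with a minimum count of 10 and a minimum total of 15) left 26508 genes. Counts were scaled by TMM and fitted with edgeR 4.0.16 (R 4.3.3). The fit used the 12 libraries together, had a coefficient for each group and left 8 residual degrees of freedom (6 with the block). P-values were adjusted by Benjamini-Hochberg over all genes tested. Tests were two-sided. The standard error of a log2 value is its size divided by the square root of F. CPM use the TMM-adjusted total, and per-set values add a pseudocount of 0.5. Alternatives were RLE size factors, DESeq2 1.42.0, limma 3.58.1, other filters, thinning, the block, and leaving out libraries or sets. The fits were also run on simulated data with known increases in stimulated ifih1mut, and the outcome is not given here. Those data held no differences between library sets, so they cannot show how the fits handle such differences. Totals of 31876869 to 100839015 counts set the precision of low genes.

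Samples carry replicate numbers in the titles that the table columns lack, so pairing rests on the library set. In the titles, the replicate numbers of unstimulated ifih1mut start higher than those of the other groups. The titles thus do not show that its libraries pair by order with those of the other groups. All fits with the block rest on this pairing. Over 22701 genes, the deviations of same-set libraries from their group means correlated between 0.295 and 0.801 in 18 pairs, so the sets were taken to pair the libraries. Those of different sets correlated between -0.626 and 0.174 in 36 pairs. Deviations cancel within a group, so positive same-set values force lower values between sets, which are no separate support for the pairing.

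The members, the 19 gene lists and the tests were chosen with earlier results of these data known. The rule for named genes took ifih1, ifit10, mxb, irf7, isg15, rsad2, mxa, il1b, tnfa, cxcl8a and an item that is not reported here. To these it added the genes with the 12 highest positive and 8 lowest negative response differences (0 of the latter were called) among called genes whose average log2 CPM was 0 or more, with a symbol that is no clone or assembly name, and from each list the called members with the lowest adjusted p, at most 4. For a list with no called member it took the 2 members with the highest mean CPM, as values. Genes named outside the rule, such as list examples that did not pass, were chosen after their values were seen.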

Additional observations from a re-analysis of the deposited data

Results flagged for a closer look

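In 41 genes the effect of poly I:C differed between the genotypes by the edgeR test of the difference itself. Among the genes named by rule these were ifit10 (7.79 on the log2 scale), mxb (7.11), dhx58 (6.51), mxa (6.47), isg15 (6.18), xaf1 (5.72), znfx1 (5.27), helz2 (5.24), irge4 (5.04), rnf213b (4.97), phf11 (4.39), ftr90 (3.79), irf7 (3.29) and lgals3bpb (2.63). All were larger in ifih1mut and positive in each of the 3 library sets, which describes genes that the same contrast selected. The formal test for a single deviating sample needs at least 4 per group and was not run on groups of 3.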

How the results depend on the processing

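With the library set as a replicate block, edgeR called 79 larger and 0 smaller responses in place of 41 and 0. DESeq2 called 133 larger and 3 smaller, and 175 and 8 with the replicate block. limma on log2(CPM + 0.5) called 74 larger, and 103 with the block. Thinning all libraries to the smallest total left 25, and leaving out a whole set left 0 (set 1), 0 (set 2) and 15 (set 3). The count stayed close to 41 with RLE size factors (41), no filter (46) and a CPM minimum (40). Leaving out 1 library, with or without the block, gave 0 to 104 larger and 0 to 2 smaller responses. The sign of 2 uncalled genes turned: il1b ran from -0.32 to 2.22 with 1 library left out, and cxcl8a from -0.49 to 0.54, with -0.06 without set 3. The cause was not tested. Genes with few counts in 3 groups have loosely set fold changes, 3 libraries per group leave 8 residual degrees of freedom, and the transgene's reads cannot be separated from those of ifih1.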
